A study of Arabidopsis thaliana with 6 samples.

Results

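The genes described here are 7 enzymes of flavonoid synthesis and 3 MYB transcription factors that control them in *Arabidopsis thaliana*. They were taken by locus identifier, as 10 of the 33602 genes with a row in the count files. The rule itself uses no measured value, but the members were chosen with earlier results of these data known. All 10 also have a row in the authors' deposited table, which lists 25005 genes. The enzymes are chalcone synthase (CHS, AT5G13930), chalcone isomerase (CHI, AT3G55120), flavanone 3-hydroxylase (F3H, AT3G51240), flavonoid 3'-hydroxylase (F3'H, AT5G07990), flavonol synthase 1 (FLS1, AT5G08640), dihydroflavonol reductase (DFR, AT5G42800) and leucoanthocyanidin dioxygenase (LDOX, AT4G22880). The factors are MYB11 (AT3G62610), MYB12 (AT2G47460) and MYB111 (AT5G49330).

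RNA came from whole seedlings at an age of 1 day. The wild type Col-0 was compared with vil1-1, a vil1 mutant line whose lesion the labels do not describe, with 3 libraries of each genotype. VIL1 encodes a PHD finger protein that works with Polycomb repressive complex 2. All seeds spent 3 days at 4 °C in darkness, and all seedlings then grew on half-strength medium at 22 °C in long days of 16 h light and 8 h dark. The labels name no treatment for either genotype. The design text calls the 3 libraries of a genotype biological replicates.

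The libraries held 46917 to 66546 counts, so 1 count was worth 15.0 to 21.3 CPM, that is counts scaled to a library total of 1000000. A count of 0 allowed up to 45.1 to 63.9 CPM in a single library, taking 3 counts as the most that 0 allows. These limits cover counting error only. The targeted gene VIL1 had 0 counts in every library, and the authors' deposited table lists it at -0.91 (log2, mutant over wild type) and 14.2 CPM. Among markers of green seedlings, the Rubisco and light-harvesting genes RBCS1A, LHCB1.2, LHCB1.3 and LHCB2.1 summed to 2804 to 3254 CPM in wild-type libraries and 2756 to 3453 CPM in mutant ones, and the groups overlapped.

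Flavonoids are made from phenylalanine. The general phenylpropanoid enzymes give coumaroyl-CoA, CHS joins it with malonyl-CoA to form a chalcone, and CHI and F3H turn this into dihydroflavonols. FLS1 then makes flavonols, which seedlings store as glycosides and which absorb ultraviolet light, while DFR and LDOX lead to anthocyanins and to the proanthocyanidins of the seed coat. MYB11, MYB12 and MYB111 activate the early steps up to FLS1, and a complex of MYB, bHLH and WD40 proteins activates the late steps from DFR on.

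The promoters of the 4 enzymes with a lower level in the mutant, by the authors' deposited table, are shown first, because they are the members that were called. Each run holds 250 bases before the RefSeq gene start and 50 bases from it on, in TAIR10.1, read on the gene's own strand. Capitals mark the G-box letters CACGTG, the core bound by the light-signalling factor HY5 among others, and the MYB-type letters ACCTACC, with the variants that read ACCAACC or, as a last form, ACCTAAC, all searched on both strands; FLS1 and LDOX hold none of them.
CHS, chr5:4488226-4488525, plus strand: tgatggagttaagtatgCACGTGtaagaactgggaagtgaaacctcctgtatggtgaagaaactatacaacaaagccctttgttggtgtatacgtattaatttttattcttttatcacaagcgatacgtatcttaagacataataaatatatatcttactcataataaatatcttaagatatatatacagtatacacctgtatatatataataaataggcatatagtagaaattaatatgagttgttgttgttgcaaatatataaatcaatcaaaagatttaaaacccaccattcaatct
CHI, chr3:20431548-20431847, minus strand: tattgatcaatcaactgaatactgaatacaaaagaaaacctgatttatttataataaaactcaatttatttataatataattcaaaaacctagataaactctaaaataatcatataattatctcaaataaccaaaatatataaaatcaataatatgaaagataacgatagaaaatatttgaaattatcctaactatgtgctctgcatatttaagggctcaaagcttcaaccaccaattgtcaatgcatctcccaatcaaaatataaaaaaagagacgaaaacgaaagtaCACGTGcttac
FLS1, chr5:2803583-2803882, plus strand: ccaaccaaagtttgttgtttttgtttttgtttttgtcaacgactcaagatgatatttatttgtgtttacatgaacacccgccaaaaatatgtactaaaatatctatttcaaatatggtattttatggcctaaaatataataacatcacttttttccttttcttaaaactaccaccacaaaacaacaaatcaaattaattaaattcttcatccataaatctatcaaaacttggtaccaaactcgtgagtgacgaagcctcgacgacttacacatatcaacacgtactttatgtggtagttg
LDOX, chr4:12006160-12006459, minus strand: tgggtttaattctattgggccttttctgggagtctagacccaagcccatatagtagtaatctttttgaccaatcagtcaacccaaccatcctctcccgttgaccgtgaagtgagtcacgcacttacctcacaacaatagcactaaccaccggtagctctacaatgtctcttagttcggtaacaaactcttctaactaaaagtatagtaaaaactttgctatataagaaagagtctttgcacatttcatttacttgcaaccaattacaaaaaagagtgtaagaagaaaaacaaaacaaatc

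CACGTG was found in the promoters of CHS, CHI, F3H, DFR and MYB12, which is 5 of the 10 members, against 7.68% of 27443 promoters of protein-coding genes of the same length. In CHS it began at position -233 from the gene start, and in CHI at position 40 after it. The shorter core ACGT, which every CACGTG also contains, was in 8 of the 10 members and in 49.9% of all promoters, so it was common everywhere. Of the MYB-type letters, only ACCAACC was present, in DFR alone, where 3.29% of all promoters hold it. ACCTACC was in 0 members and 1.38% of all promoters, and ACCTAAC in 0 members and 2.88%. The RY letters CATGCA, bound by seed maturation factors of the B3 class, were in MYB11 and MYB111 and in 9.72% of all promoters. A match describes letters in these windows and shows no binding. Only these exact letters were searched, so a window without them may still hold other MYB-type letters.

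Of the 10 members, the authors' deposited table has 4 lower and 0 higher in vil1-1, at a Benjamini-Hochberg adjusted p under 0.05 over all its genes. Over all its genes 7.13% were called, with 3.58% lower and 3.56% higher. The 4 were CHS, CHI, FLS1 and LDOX, all enzymes, and the 3 MYB factors were not called. At an unadjusted p under 0.05, the authors' deposited table adds DFR as lower and F3'H as the 1 higher member, a threshold at which 9.23% of all its genes were lower and 7.75% higher. The median log2 fold change in the authors' deposited table was -0.41 for the 10 members, -0.68 for the 7 enzymes alone and -0.05 for all its genes.

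At the entry of the pathway, CHS (chromosome 5, 4488476 to 4490264, plus strand) was the most abundant member and had the smallest fall of the 4. In the authors' deposited table its mean was 449 CPM and its log2 fold change -0.24, so that it fell by 15.0% (adjusted p = 0.0246). The interval that this fold change and its F score imply runs from -0.38 to -0.09. Such intervals, here and below, may be too narrow, because the authors' p-values make no allowance for a spread estimated from few libraries. CHI (chromosome 3, 20430059 to 20431597, minus strand), the next enzyme, fell more steeply in the authors' deposited table, by 0.68 on the log2 scale at 103 CPM (adjusted p = 3.79e-10), which means that it dropped by 37.6%. Its implied 95% interval of -0.87 to -0.49 lay below that of CHS, although the difference between both fold changes was not tested.

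FLS1 (chromosome 5, 2803833 to 2805606, plus strand), which leads to flavonols, fell by 0.59 on the log2 scale in the authors' deposited table, at 96.8 CPM (adjusted p = 1.61e-07, implied 95% interval -0.79 to -0.40). LDOX (chromosome 4, 12004726 to 12006209, minus strand), on the branch to anthocyanins, fell by 1.28 in the authors' deposited table at only 5.95 CPM (adjusted p = 0.00249, implied 95% interval -1.92 to -0.64). DFR, the enzyme before LDOX on that branch, had -1.25 at 2.59 CPM in the authors' deposited table and was not called (adjusted p = 0.188). Its implied 95% interval of -2.33 to -0.17 spans that of LDOX.

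F3'H, which adds the hydroxyl group that separates quercetin from kaempferol, was the one enzyme with a positive value. In the authors' deposited table it had 0.48 at 18.3 CPM (adjusted p = 0.0832), so it was not called. Its implied 95% interval of 0.13 to 0.82 did not overlap those of CHS, CHI, FLS1, DFR or LDOX in the authors' deposited table. This comparison of intervals is a description, since the table holds no values per library.

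The MYB factors lay close to 0. In the authors' deposited table MYB12 had 0.06 at 16.5 CPM (adjusted p = 0.885) and MYB111 had 0.08 at 11.0 CPM (adjusted p = 0.875). Their implied 95% intervals were -0.30 to 0.43 and -0.36 to 0.52, so a fall of the size seen for CHS lies inside both. MYB11 was near silent at 1.27 CPM in the authors' deposited table, with 0.15 and an implied interval of -1.78 to 2.08, which sets no useful limit.

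**Figure D1:**
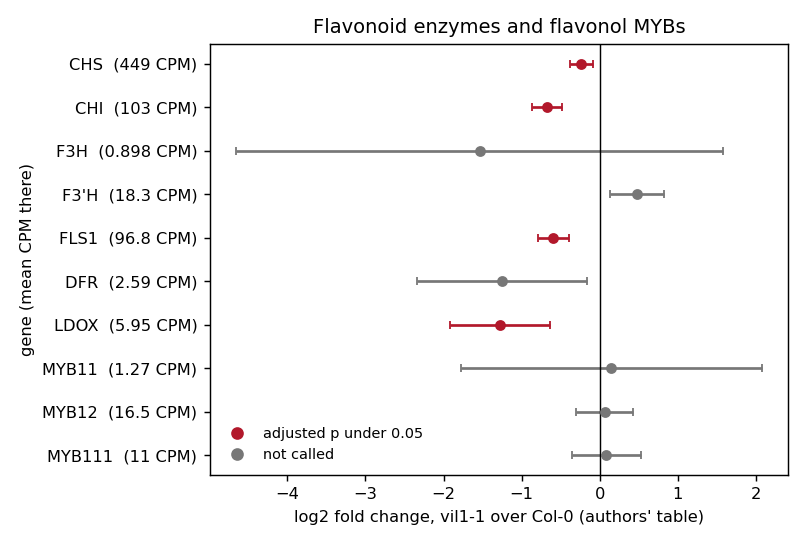
Log2 fold change (vil1-1 over wild type) for the 10 members in the authors' deposited table, in pathway order with the MYB factors last; bars are 95% intervals implied by the fold change and the F score, and red marks an adjusted p under 0.05. CHS, CHI, FLS1 and LDOX lie below 0, F3'H lies above 0 without a call, MYB12 and MYB111 sit near 0, and F3H and MYB11 have very wide bars at 0.898 and 1.27 CPM.

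Levels differed widely along the pathway when set per length. On the authors' mean CPM in the authors' deposited table, divided by exonic kilobases, CHS stood at 263 CPM per kb, CHI at 92.3 and FLS1 at 59.8. MYB12 followed at 10.4 CPM per kb, F3'H at 9.50, MYB111 at 6.71 and LDOX at 4.25 in the authors' deposited table. DFR at 1.70 CPM per kb, MYB11 at 0.923 and F3H at 0.596 were lowest there. The table gives no spread, so neighbours in this order cannot be told apart by a test. CHS, CHI and FLS1 stood far above DFR and LDOX, the enzymes of the anthocyanin branch, in the authors' deposited table.

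F3H was almost absent from both sources although it stands between CHI and FLS1, which were abundant. It had 0 counts in all 6 libraries, and the authors' deposited table puts it at 0.898 CPM and a log2 fold change of -1.54 (adjusted p = 0.682). F3H lies on chromosome 3 from 19025192 to 19026872 on the plus strand in TAIR10.1. The annotated antisense transcript AT3G51238 runs on the minus strand from 19025110 to 19026779 and covers 1415 of the 1508 exonic bases of F3H, or 93.8%. AT3G51238 also had 0 counts over the 6 libraries. The labels and processing notes do not say whether the authors' counting used strand or what it did with reads that fall on 2 genes, so the level of F3H cannot be read from these values.

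Among protein-coding genes whose exonic bases were covered to over 90% by exons of other counted genes, 230 of 330 had 0 counts in every library, or 69.7%. Of the 20159 genes with no shared base, 48.3% had 0 counts. The share was lower, at 33.8%, for genes covered above 0 and up to 50%, and 69.2% for those above 50 and up to 90%, so it did not rise steadily with overlap. The classes also differed in level. Over 90%, 63.0% of genes were in the authors' deposited table, at a median log2 CPM of 1.45. With no shared base, 83.2% were, at a median of 3.05. The part of level and of overlap in the counts of 0 was not tested. In the class over 90%, 100 genes had counts. One of them was UGT89C1, a flavonol rhamnosyltransferase gene of the same pathway, with 99.6% of its exonic bases under the antisense gene AT1G06002 and 27 counts in all. RefSeq models may differ from those the authors counted on. Of the other members, only CHS shared exonic bases with a counted gene, namely 2 bases with AT5G13940.

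**Figure D2:**
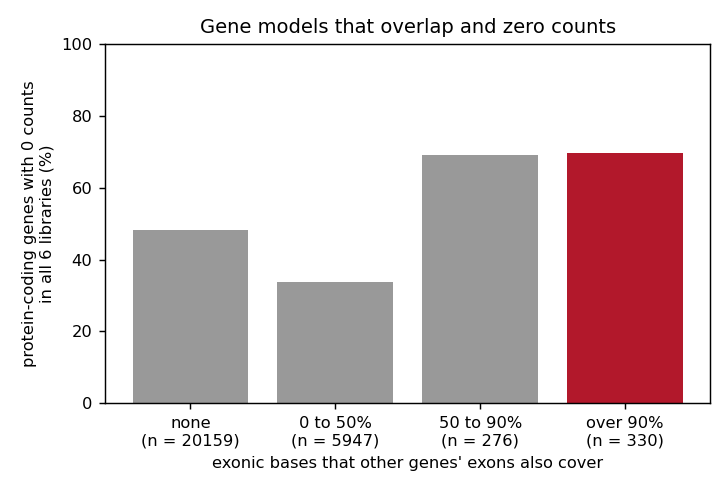
Share of protein-coding genes with 0 counts in all 6 libraries (vertical axis, percent), by the share of their exonic bases that exons of other counted genes also cover. The class over 90%, in red, holds F3H and stands at 69.7%, close to the 69.2% of genes covered above 50 and up to 90%. Genes with no shared base stand at 48.3% and those covered up to 50% at 33.8%. What sets these shares was not tested.

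In the count files only CHS passed the default edgeR filter on low counts. The 3 Col-0 libraries, in replicate order, held 10, 20 and 11 CHS counts, and the 3 vil1-1 libraries 7, 9 and 12. That is 225 ± 67.5 CPM for the wild type against 174 ± 21.5 CPM for the mutant (SD, n = 3 each), and the groups overlapped. The highest library was Col-0 replicate 2 at 301 CPM (exact 95% interval 184 to 464), and the lowest vil1-1 replicate 1 at 149 CPM (exact 95% interval 60.0 to 307). The log2 fold change was -0.36 (SE 0.38, edgeR quasi-likelihood adjusted p = 0.787), so CHS was not called. Of the 942 genes tested there, 3.72% were called, 0.955% as lower. The SE was larger than the fall in the authors' deposited table, which could therefore not be detected at this depth.

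CHI had 4, 3 and 7 counts across Col-0 libraries against 2, 2 and 2 across vil1-1 libraries. Every vil1-1 library was below every Col-0 library, but Col-0 replicate 2 at 45.1 CPM and vil1-1 replicate 1 at 42.6 CPM lay closer than 1 count. Means were 78.5 ± 31.8 and 38.3 ± 5.86 CPM (SD, n = 3 each), with p = 0.1 in a two-sided exact permutation test, the smallest that 3 against 3 libraries can give. The same exact permutation test was run on 3 members and gave p = 0.3 for CHS and p = 0.9 for FLS1. FLS1 had 1, 7 and 3 counts across Col-0 libraries against 3, 3 and 2 across vil1-1 libraries, and its groups overlapped fully. Its Col-0 libraries alone spanned 20.5 to 105 CPM. With no filter on low counts, edgeR gave CHI a log2 fold change of -1.02 (SE 0.73, adjusted p = 0.772) and FLS1 -0.28 (SE 0.73, adjusted p = 0.9), so neither was called.

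The other members had few counts or none. F3'H had 0, 3 and 0 counts across Col-0 libraries against 2, 2 and 0 across vil1-1 libraries. LDOX had 0, 1 and 1 across Col-0 libraries against 1, 0 and 0 across vil1-1 libraries, and DFR had a single count, in vil1-1 replicate 2. MYB12 had 0, 0 and 1 across Col-0 libraries against 1, 1 and 1 across vil1-1 libraries, MYB111 1, 0 and 1 across Col-0 libraries against 0, 1 and 1 across vil1-1 libraries, and MYB11 had 0 counts in every library. Each of these values lies at or below the 3 counts that 0 allows, so no fold change is given for them. With no filter edgeR could fit 8 members, these 5 sparse ones with an SE of 1.19 to 2.19 on the log2 scale, and called 0 of the 8 (adjusted p = 0.772 to 0.966, 0 at an unadjusted p under 0.05), where 0.141% of all 14869 genes were called. With CPM above 1 in at least 3 libraries as the filter edgeR fitted 7 members and called 0 (0 at an unadjusted p under 0.05), where 0.352% of all 8801 genes were called.

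Summed over the 7 enzymes, the count files gave 307, 511 and 341 CPM for the Col-0 libraries in replicate order, and 320, 345 and 253 CPM for the vil1-1 libraries. The sum was highest in Col-0 replicate 2, and the other 5 libraries overlapped. The log2 ratio of vil1-1 to Col-0 was -0.34, and it was -0.08 without Col-0 replicate 2, so the value rests largely on that library. No test was made, since the members were chosen with results of these data known.

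**Figure D3:**
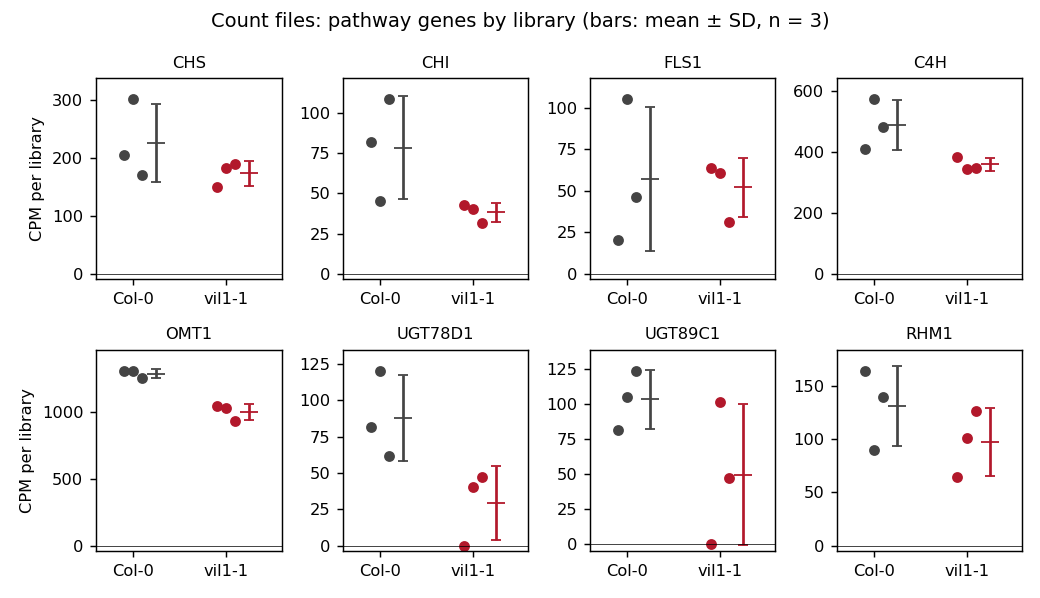
CPM per library (vertical axis, linear, each panel on its own scale) in the count files for 3 members and 5 further pathway genes; points are libraries, and bars are mean ± SD with n = 3. The groups of CHI, C4H, OMT1 and UGT78D1 do not overlap, while those of CHS, FLS1, UGT89C1 and RHM1 do. The 5 further genes are a selection. Of all 9 further pathway genes with at least 10 counts, 4 had every vil1-1 library below every Col-0 library. Over all 4479 genes with at least 10 counts, 6.52% did.

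Of the genes around the members in the pathway, those called were also lower. Of 51 further pathway genes in 4 lists, 48 are in the authors' deposited table. Of these 48, 12 were lower and 0 higher in vil1-1, against 3.58% and 3.56% of all its genes. At an unadjusted p under 0.05, 18 of the 48 were lower and 0 higher, against 9.23% and 7.75% of all its genes. The median log2 fold change of the 48 was -0.39 there, against -0.05 for all genes. Abundant genes are called more often, so a level was set after seeing the data. Among genes with a mean log2 CPM of at least 5 in the authors' deposited table, 7.24% were lower and 8.95% higher. At that level the authors' deposited table holds 3 members, all 3 of them lower, and 11 further pathway genes, of which 8 were lower.

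Upstream of CHS, 2 of 9 general phenylpropanoid genes had a call for lower in the authors' deposited table and 0 for higher. The shares over all its genes were 3.58% and 3.56%. C4H, the cinnamate hydroxylase, had -0.27 at 172 CPM (adjusted p = 0.0323), and 4CL3, a coumarate:CoA ligase gene linked to flavonoids, had -0.87 at 8.32 CPM (adjusted p = 0.0189), both in the authors' deposited table. The phenylalanine ammonia-lyase genes PAL1 and PAL2 had -0.25 and -0.24 there and were not called (adjusted p = 0.415 and 0.365). In the count files C4H had 20, 38 and 31 counts across Col-0 libraries against 18, 17 and 22 across vil1-1 libraries. Its groups did not overlap in CPM, yet its log2 fold change of -0.45 was not called (SE 0.26, edgeR adjusted p = 0.51). 4CL3 had 0 counts in every library.

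Among CHIL and the enzymes that decorate flavonols and anthocyanins, 7 of 13 were lower and 0 higher in the authors' deposited table. All its genes together had 3.58% lower and 3.56% higher. CHIL, a non-catalytic partner of CHS, fell by 0.68 on the log2 scale at 138 CPM in the authors' deposited table (adjusted p = 1.09e-11). In the count files CHIL had 1, 7 and 2 counts across Col-0 libraries against 2, 3 and 2 across vil1-1 libraries, and its groups overlapped. With no filter edgeR gave it -0.33 (SE 0.77, adjusted p = 0.899). The 7-O-rhamnosyltransferase gene UGT89C1 has 99.6% of its exonic bases under an antisense gene, so the counting limit given for F3H holds for it too. It fell by 0.68 as well, at 108 CPM (adjusted p = 2.38e-10) in the authors' deposited table. RHM1, which makes the UDP-rhamnose these enzymes use, fell by 0.46 there (adjusted p = 9.53e-06). The 3-O-glycosyltransferase genes UGT78D1 and UGT78D2 fell by 0.42 and 0.41 in the authors' deposited table (adjusted p = 0.000364 and 0.00791). OMT1, a methyltransferase gene that serves lignin as well as flavonols, fell by 0.48 there (adjusted p = 8.5e-07). UGT79B1, an anthocyanin glycosyltransferase gene at 2.59 CPM, had -1.67 in the authors' deposited table and passed narrowly (adjusted p = 0.0493). It had 0 counts in every library. All 6 listed genes of this group above a mean log2 CPM of 5 in the authors' deposited table were among the 7.

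Among CHIL and these decorating enzymes, only OMT1 had more counts than CHS, the member with the most. OMT1 had 64, 87 and 81 counts across Col-0 libraries against 49, 51 and 59 across vil1-1 libraries, that is 1291 ± 31.1 against 1003 ± 62.0 CPM (SD, n = 3 each). Its groups were well apart, but the log2 fold change of -0.36 was not called (SE 0.18, edgeR adjusted p = 0.401). UGT78D1 had 4, 8 and 4 counts across Col-0 libraries against 0, 2 and 3 across vil1-1 libraries, where the count of 0 allows up to 63.9 CPM and so reaches the lowest Col-0 library at 62.0 CPM. Over the members and the 4 lists, 12 genes had at least 10 counts: 3 members and 9 others. CHI among the members, and C4H, UGT78D1, OMT1 and the regulator gene PAP2 among the others, had every vil1-1 library below every Col-0 library, and 0 genes had the reverse. For PAP2 the count of 0 in vil1-1 replicate 1 allows up to 63.9 CPM, which is above all 3 of its Col-0 libraries at 60.1 to 62.0 CPM. Over all 4479 genes with at least 10 counts, 6.52% lay below and 6.25% above in that way.

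Levels on the branch to proanthocyanidins were low. BAN, the anthocyanidin reductase that defines the branch, was at 0.74 CPM in the authors' deposited table and had 0 counts in every library. The transporter gene TT12 had 0 counts as well and is not in the authors' deposited table. TT19, a glutathione transferase gene that carries anthocyanins as well as proanthocyanidin precursors to the vacuole, was the 1 called gene of the 5 in the authors' deposited table, at -1.44 and 5.11 CPM (adjusted p = 0.00186). Over all genes there, 3.58% were called lower. TT15, a sterol glucosyltransferase gene, had -0.07 there at 10.8 CPM (adjusted p = 0.897). Seed coat markers outside the pathway had 0 of 3 called in the authors' deposited table, with MUM4 at -0.21, MUM2 at 0.10 and MYB61 at -1.66, the last at only 1.16 CPM. Their summed level was 75.1 to 124 CPM across wild-type and 40.5 to 111 CPM across mutant libraries, overlapping, and DP1 had 0 counts in every library.

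Among 23 other regulators, 21 are in the authors' deposited table, with 2 lower and 0 higher. Over all genes there, 3.58% were lower and 3.56% higher. PAP2, a MYB activator of anthocyanin genes, fell by 0.83 on the log2 scale at 27.4 CPM (adjusted p = 3.48e-06) in the authors' deposited table. It had 3, 4 and 4 counts across Col-0 libraries against 0, 2 and 2 across vil1-1 libraries. PAP2 has close relatives next to it, and its reads may be shared with them. PAP1 stood at 1.16 CPM in the authors' deposited table, and MYB114 at 0.792 CPM. LBD37, a repressor of anthocyanin genes, fell by 0.55 there at 34.2 CPM (adjusted p = 0.00244). The light-signalling genes HY5 and HYH, whose products act on CHS, had -0.17 (adjusted p = 0.49) and -0.29 (adjusted p = 0.0636) there, neither of them called by the authors' deposited table.

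**Figure D4:**
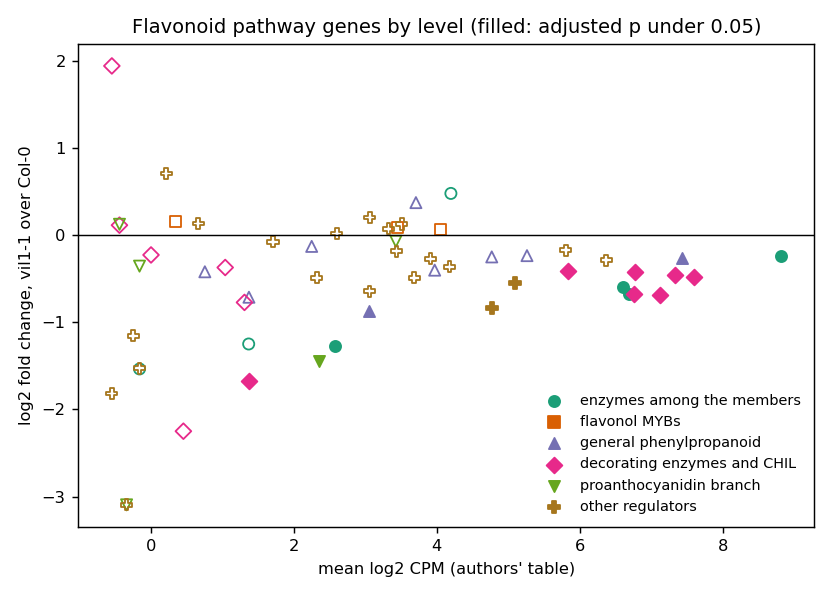
Log2 fold change (vil1-1 over wild type) against mean log2 CPM for the 10 members and the 48 further pathway genes in the authors' deposited table; filled symbols have an adjusted p under 0.05. All 16 filled symbols lie below 0, and they include all 3 members and 8 of the 11 further genes above a mean log2 CPM of 5.

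Markers of other seed tissues were read beside these values. All 5 embryo maturation markers were called higher in the authors' deposited table, from 0.57 for CRC to 1.89 for EM1. There 3.56% of all genes were called higher. In the count files the markers summed to 5, 2 and 7 counts across Col-0 libraries against 7, 7 and 7 across vil1-1 libraries. That is 30.1 to 108 CPM against 111 to 149 CPM, and Col-0 replicate 3 and vil1-1 replicate 3 lay closer than 1 count. CRA1, EM1 and EM6 had 4, 3 and 2 counts over all Col-0 libraries against 9, 5 and 5 over all vil1-1 libraries. CRC and OLEO1 went the other way, with 2 and 3 against 1 and 1. The endosperm marker MAN7 was higher (1.14, adjusted p = 1.05e-11) and EPR1 was not called (0.14, adjusted p = 0.384) in the authors' deposited table. None of the 4 green seedling markers was called there, with values from -0.18 to 0.12. Fewer cells of a type and less RNA per cell cannot be told apart in whole seedlings, and the part of these markers in the flavonoid values was not tested.

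The 5 genes with the library profile most like that of CHS were AT5G22640, AT1G12310, AT1G67810, AT4G33760 and AT2G33800. Likeness was the root mean square distance of centred log2 CPM over the 6 libraries among the 942 tested genes, and it ran from 0.10 to 0.15. None of the 5 was called in the authors' deposited table, where their log2 fold changes lay between -0.25 and 0.03. CHS had 69 counts in all, so its own profile is imprecise.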

How the data were processed

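Each library has a deposited file of raw gene counts, not normalized. Bowtie2, featureCounts, edgeR and TAIR10 are named, without versions, in the submitters' processing notes; neither a library kit nor a strand setting is given. The authors' deposited table gives per gene a log2 fold change, an average log2 CPM, a p-value and an F score, per the file headers. Which libraries entered it is not given. That table lists 25005 genes, while 14869 genes had any count in the count files. F3H and VIL1 had 0 counts in every library but log2 fold changes of -1.54 and -0.91 there. The table was therefore not computed from these count files alone.

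Counts were tested with edgeR 4.0.16 (quasi-likelihood F test, TMM, default filter on low counts, genotype only, Benjamini-Hochberg adjustment; limma 3.58.1 and DESeq2 1.42.0 as alternatives; R 4.3.3), after a run on simulated counts. CPM are counts scaled to a library total of 1000000. The authors' p-values were adjusted here over 25005 genes. They follow a chi-square on 1 degree of freedom (F under 20: within 0.00195 in log10), so implied 95% intervals were computed from fold change and F. A chi-square makes no allowance for a spread estimated from few libraries. The authors' p-values may therefore be too small and the implied intervals too narrow, and they may not measure the spread between biological replicates. Promoters and gene models came from RefSeq TAIR10.1 and carry its coordinates. Members and lists were chosen with earlier results of these data known. Named genes are the members, up to 6 called genes per list by smallest p, VIL1 and the 5 genes nearest to CHS. Where fewer than 2 genes of a list were called, its 2 most abundant genes in the count files were named too. UGT79B1, PAL1, PAL2, HY5, HYH, PAP1, MYB114, BAN, TT12, the antisense genes, AT5G13940 and the markers were named outside this rule, after their values were seen.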

Additional observations from a re-analysis of the deposited data

How the results depend on the processing

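The log2 fold change of CHS in the count files stayed negative and uncalled in all 12 alternatives that gave a value, from -0.54 to -0.28 (edgeR, limma-voom or DESeq2 adjusted p = 0.666 to 0.99). Without Col-0 replicate 2 CHS failed the filter and gave no value. C4H and OMT1 stayed negative and uncalled in all 13 alternatives. The count of called genes, 35, was 8 with DESeq2, 21 with no filter, and 19 to 36 with 1 library left out, the lowest without vil1-1 replicate 2. With the replicate number as a block it was 34, and CHS had -0.33. Same-numbered libraries had correlated deviations of only -0.03 to 0.08, so the numbers were not taken as pairs. The log2 ratio of the summed enzymes ran from -0.48 to -0.08 with 1 library left out, and was -0.29 without CHS. Calls in the authors' deposited table covered 4 members and 12 further genes also among genes with a mean log2 CPM of at least 0, and 3 and 9 at an adjusted p under 0.01, where CHS was lost. The share of genes called lower there, 3.58%, was 7.24% among genes with a mean log2 CPM of at least 5, a level chosen after seeing the data. With CPM above 1 in at least 3 libraries as the filter edgeR fitted 7 members, and with no filter 8, and called 0 of them (0 at an unadjusted p under 0.05, adjusted p = 0.945 to 0.954 and 0.772 to 0.966). Depth limits these values: 9 of the 10 members failed the default filter, and p-values from the count files measure the spread between these libraries.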

Other observations

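Levels of the pathway genes differed between the count files and the authors' deposited table. OMT1 had a mean of 1147 CPM over the 6 count files against 193 CPM in the authors' deposited table, a ratio of 5.93, and C4H had 423 against 172 CPM, a ratio of 2.45. CHS went the other way with 199 against 449 CPM, a ratio of 0.445, as did CHIL with 48.6 against 138 CPM, a ratio of 0.352. The most abundant pathway gene was therefore OMT1 in the count files and CHS in the authors' deposited table, on CPM not set per length. Over the 4479 genes with at least 10 counts, the central 90% of log2 ratios ran from -1.61 to 2.87 with a median of 0.02, so these genes lie within the general spread. What sets the ratio was not tested.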
